A study of Mus musculus with 4 samples.

Results

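The genes of the MAP kinase cascade and the dual-specificity phosphatases were examined in mouse NIH3T3 fibroblasts, an immortalised embryonic line, before and after induction of the double-stranded RNA-activated kinase PKR. Members were all probe sets whose single gene symbol in the platform annotation began with Mapk, Map2k, Map3k, Map4k or Dusp followed by a digit. The rule found 33 probe sets of 28 genes among 13057 probe sets (6137 named genes): 22 probe sets of 20 kinase genes, 4 of 2 scaffold genes, 5 of 5 MAP kinase phosphatase genes and 2 of 1 atypical phosphatase gene. The line carries wild-type PKR behind a promoter that tetracycline silences. The tetracycline cultures had 1 µg/ml of the drug and 5% serum, and the withdrawn cultures had been without the drug for 5 h to switch PKR on. The labels give no serum content for the withdrawn cultures, and do not say whether the line is a single clone or from which species the PKR sequence came. No line without the transgene was part of the series, so effects of PKR, of the drug and of a change of medium cannot be told apart. Total RNA was measured on 4 arrays, 1 per condition on each of 2 array types with different probe sets (the second is marked MB). There is therefore no replicate of any value. No difference below has a test, and all describe these 4 arrays.

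MAP kinases are the last tier of a relay in which MAP4 kinases act on MAP3 kinases and MAP3 kinases activate MAP2 kinases. The MAP2 kinases phosphorylate a threonine and a tyrosine in the activation loop of a MAP kinase. The ERK branch answers mainly to growth factors and the JNK and p38 branches to stress and inflammatory signals. Dual-specificity phosphatases remove both phosphates, and several of them are transcribed in response to the pathway that they switch off, which makes them feedback inhibitors.

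The members differed by role on the first array type. Over both types, 3 of the 4 MAP kinase phosphatase genes measured in both conditions were at least 1.5-fold higher after withdrawal, beside 13.2% of all measured genes. They were Dusp16 (2.60-fold), Dusp9 (1.85-fold) and Dusp6 (1.78-fold). The Dusp9 change (log2 0.88) was smaller than the usual spread of changes at its level (1.02). The best known of the 4, Dusp1, was nearly level (1.08-fold). Dusp2, the other phosphatase gene of this kind, read 282.0 with tetracycline and 103.7 after withdrawal, too dim there to count as measured. The kinases stayed close to their starting values: 15 of 16 measured kinase genes lay within 1.5-fold, as did 76.0% of all measured genes, with a median log2 change of -0.012. The phosphatase median was 0.86, and the difference between the medians was 0.87. On the MB type, where Dusp1 was the only phosphatase, that difference was -0.19. The median over all 4507 measured genes was -0.0037.

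A probe set counted as measured when both its intensities exceeded a floor, set at the 25th percentile of all values of its array type (129.7 for the first and 80.0 for MB). A stricter limit, the control floor, was the 95th percentile of 39 bacterial and yeast control probe sets (281.5 and 340.4). Of the 33 members 25 were measured at the floor and 20 at the control floor. Of the other 8, 3 exceeded the floor only after withdrawal, 2 only with tetracycline and 3 on neither array. On the first type 2 of 20 measured members were at least 2-fold higher, beside 4.36% of all measured probe sets, and 1 of 20 was 2-fold lower, beside 4.02%. At the control floor these counts were 1 of 15, beside 1.88%, and 0 of 15, beside 1.29%. On the MB type 0 of 5 members passed 2-fold in either direction, beside 8.46% higher and 6.65% lower at the floor and 1.97% and 0.767% at the control floor. These counts exceed or fall short of the background by a single probe set or so. They do not set the members as a whole apart.

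**Figure D1:**
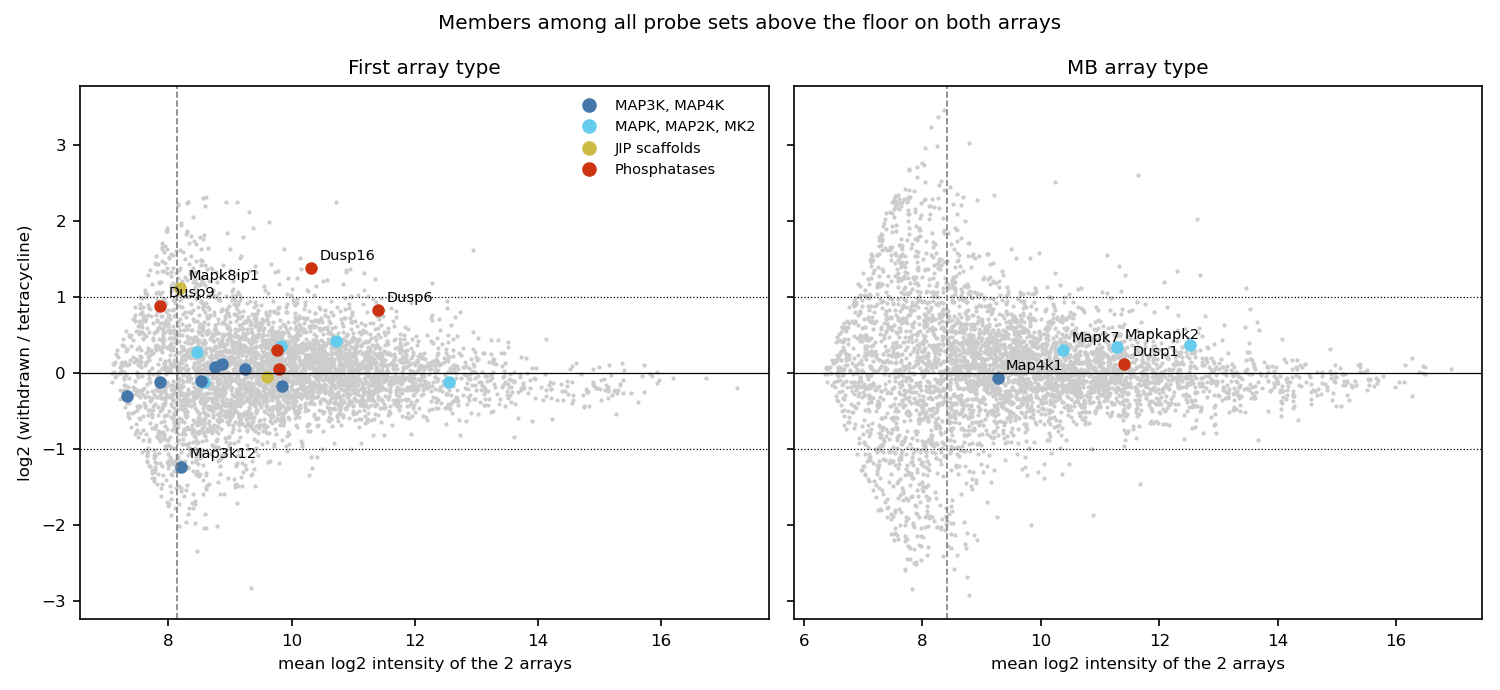
Log2 change after withdrawal (vertical axis) against mean log2 intensity (horizontal axis) for all probe sets above the floor on both arrays (grey), with members coloured by role. Dotted lines mark 2-fold and the dashed line the control floor. Dusp16 lies above the 2-fold line at a level where few probe sets do, Dusp6 lies just under it, and the kinases lie near 0 except Map3k12.

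Dusp16 encodes MKP-7, a phosphatase with preference for JNK and p38. Its probe set read 790.5 with tetracycline and 2055.7 after withdrawal, a log2 change of 1.38. It was the only member past 2-fold with both values above the control floor. Among the 3555 probe sets of the first type above that floor, 14 (0.394%) had a larger upward change. As a yardstick, the spread given below is the robust SD of change among 200 neighbours in level, which was 0.38 on the log2 scale here. It mixes noise with true differences and does not replace replicates. Since RNA of whole cultures was measured, more cells with the transcript and more transcript per cell cannot be told apart, here and below.

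Dusp6 encodes MKP-3, a cytosolic phosphatase with preference for ERK and a common readout of ERK signalling. It read 2028.9 with tetracycline and 3605.5 after withdrawal, a log2 change of 0.83 against a spread of 0.31. A larger change was found in 128 of the 3555 probe sets (3.60%). Dusp9, which encodes the related MKP-4, read 172.2 and 317.8 (log2 change 0.88). Its tetracycline value was below the control floor and the spread at its level was 1.02, so its change was smaller than the spread.

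Dusp1 encodes MKP-1, a nuclear phosphatase and a classical immediate early gene. Its probe set, on the MB type, read 2604.8 and 2825.0. The log2 change of 0.12 was smaller than the spread of 0.33 at that level. Dusp2, encoding the nuclear phosphatase PAC-1 of lymphocytes, went the other way. It read 282.0 with tetracycline, at the control floor, and 103.7 after withdrawal, under the floor. It was thus at least 2.17-fold lower against the floor, and against the control floor the bound was 1.00-fold, which is no difference. With Dusp2 placed at its bound the median of the 5 phosphatase genes was 0.83. Each of these 5 genes rests on a single probe set.

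Dusp11 is an atypical member without the domain that binds MAP kinases. Its product removes phosphates from the 5′ end of RNA. Its probe sets read 873.4 and 902.3, and 783.7 and 964.0, with log2 changes of 0.047 and 0.30, both smaller than their spreads of 0.43 and 0.41.

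**Figure D2:**
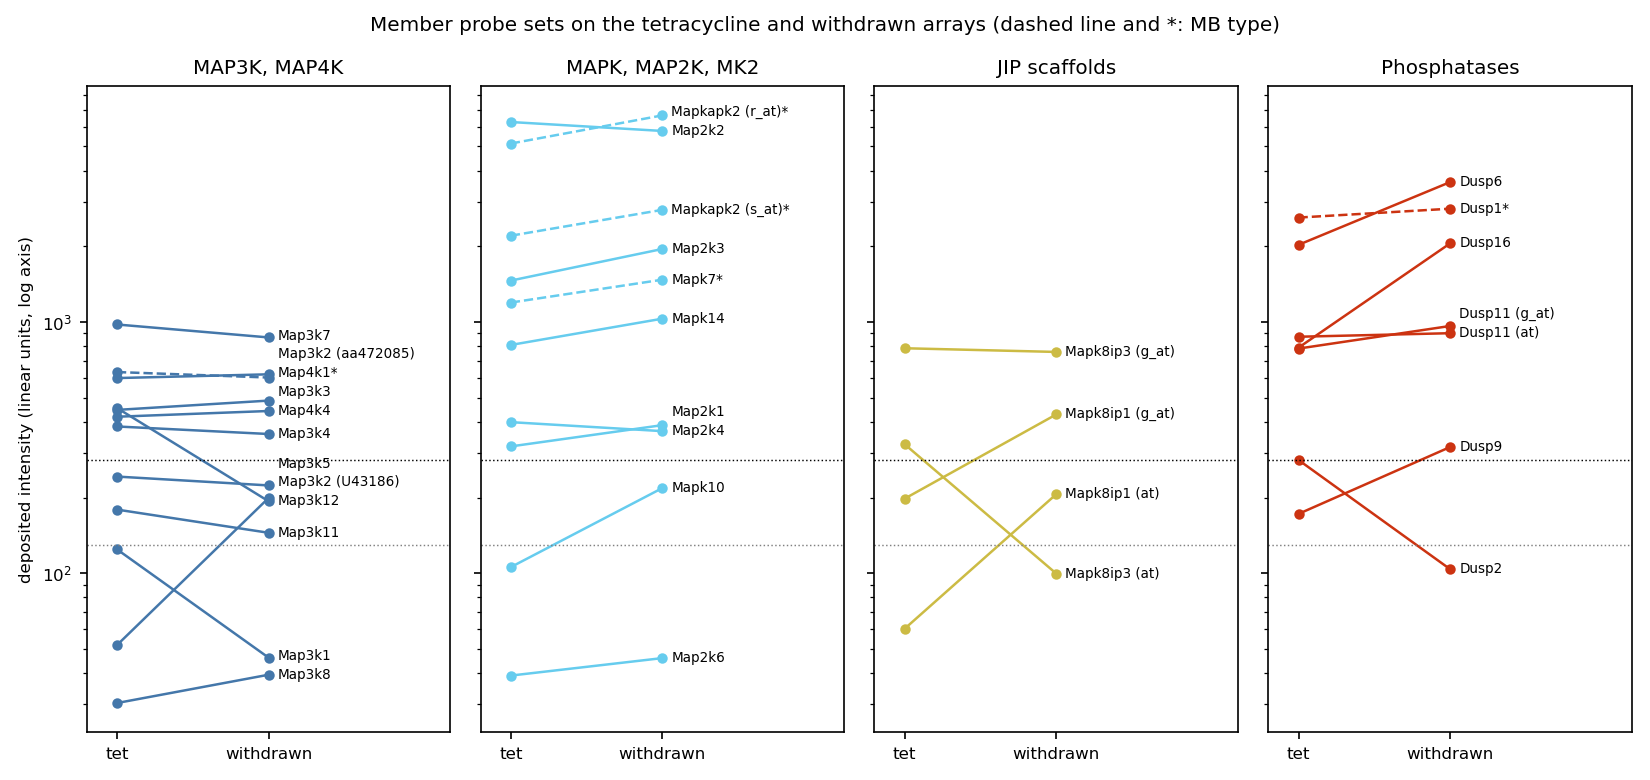
Deposited intensity of each member probe set (log axis) on the tetracycline and the withdrawn array, in panels by role. Solid lines are first-type probe sets and dashed lines with an asterisk MB-type probe sets, and the dotted horizontal lines are the floor (129.7) and control floor (281.5) of the first type. Dusp16 and Dusp6 have the steepest upward lines among the bright probe sets, and most steep lines elsewhere start or end below the control floor.

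The upstream sequences of Dusp16 and Dusp6, which were higher together, and of Dusp1, which was not, are shown. These are the MAP kinase phosphatases above the control floor in both conditions. The atypical Dusp11 was also above it but is not shown. Each run holds the 250 bases before the start site listed by RefSeq (GRCm38.p6), 5′ to 3′ on the gene's strand. The runs are chr6:134792629-134792878 (minus strand), chr10:99262981-99263230 (plus strand) and chr17:26508473-26508722 (minus strand). That of Dusp16 lies inside the annotated gene, downstream of its outermost start. Capitals mark TGACG on either strand, the core of the cyclic AMP response element.
Dusp16: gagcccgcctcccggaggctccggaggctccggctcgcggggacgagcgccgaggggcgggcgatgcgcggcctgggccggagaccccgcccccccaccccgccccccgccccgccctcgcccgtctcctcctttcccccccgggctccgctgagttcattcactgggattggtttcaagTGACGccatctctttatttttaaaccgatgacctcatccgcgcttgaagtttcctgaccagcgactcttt
Dusp6: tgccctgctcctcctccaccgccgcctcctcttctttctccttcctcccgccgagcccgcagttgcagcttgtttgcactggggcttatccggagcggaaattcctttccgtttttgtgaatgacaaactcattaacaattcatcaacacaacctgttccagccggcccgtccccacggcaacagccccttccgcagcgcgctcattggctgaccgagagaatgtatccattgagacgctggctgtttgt
Dusp1: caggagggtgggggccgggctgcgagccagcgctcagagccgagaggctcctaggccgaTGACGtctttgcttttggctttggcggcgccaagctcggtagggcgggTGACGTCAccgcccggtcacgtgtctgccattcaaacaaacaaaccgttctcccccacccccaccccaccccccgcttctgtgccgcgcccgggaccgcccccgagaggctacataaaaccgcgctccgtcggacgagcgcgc
The Dusp1 run held the full element TGACGTCA, from base 143 to base 136 before the start, which contains TGACG on both strands, and a further TGACG from base 191 to base 187. The Dusp16 run held a single TGACG, from base 70 to base 66, and the Dusp6 run none. Among all 32851 upstream windows of this length, TGACG was in 17.8% and TGACGTCA in 1.55%. None of the runs shown matched the AP-1 motif TGANTCA (6.75% of all windows), the serum response element known as the CArG box (1.47%), the ATF4 response motif TGATGCAA (0.791%) or the kappaB motif (7.25%), each searched on both strands. The Dusp1 run held the E-box CACGTG (6.02% of all windows). Both the Dusp16 and the Dusp1 run held the GC box GGGCGG (32.7%). RefSeq windows were found for 23 of the 28 member genes. TGACG was in 10 of these 23 (43.5%), beside 19.8% of all genes with a window. The 10 were Dusp1, Dusp11, Dusp16, Map2k1, Map2k4, Map3k4, Map3k7, Map4k1, Mapk10 and Mapk8ip3. Of these, only Dusp16 passed 2-fold with both values measured. TGACG was not alone in this. The GC box was in 15 of the 23 (65.2% beside 35.4%). The E-box was in 4 (17.4% beside 6.86%) and the ETS motif CCGGAAG in 3 (13.0% beside 7.83%). TGACGTCA was in 2 (8.7% beside 1.77%), the kappaB motif in 3 (13.0% beside 8.23%) and the ATF4 motif in 1 (4.35% beside 0.918%). The AP-1 motif was in 1 (4.35% beside 7.82%), TATAAA in 2 (8.7% beside 14.3%) and the CArG box in 0 (beside 1.62%). Except for TGACG and the GC box, each share rests on at most 4 genes. Such small counts do not set the members apart. The member windows also had more G and C, with a median of 60.0% beside 52.4% over all windows. The part of base composition in these motif shares was not tested. A match is a description of letters, not a binding site.

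The uppermost kinases were level. Map4k4, a MAP4 kinase acting toward JNK, read 419.5 and 442.2, a log2 change of 0.076. Map4k1, a MAP4 kinase best known in blood cells, read 631.9 and 600.9 (-0.073). Both changes were far smaller than the spreads of 0.54 and 0.49.

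The MAP3 kinases had a median log2 change of -0.12 over 7 measured genes of 9 with a probe set. Map3k7 encodes TAK1, which relays TNF and interleukin signals to JNK, p38 and NF-kB. It read 977.3 and 867.9, a log2 change of -0.17 and the lowest of any kinase above the control floor. Map3k4, whose product is activated by binding of GADD45 proteins, read 383.7 and 358.1 (-0.10). Map3k3, an activator of the ERK5 branch, read 446.6 and 486.4 (0.12). These differences were all within the spread at their level.

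The wide changes of this tier came from probe sets with at least 1 value below the control floor. Map3k12, which encodes the JNK activator DLK, was the only measured kinase lower by 2-fold. It read 454.6 with tetracycline and 193.4 after withdrawal, a log2 change of -1.23 against a spread of 0.78, with the second value below the control floor. Map3k5, encoding the oxidative stress sensor ASK1, read 242.4 and 223.5 (-0.12), and Map3k11, encoding the JNK activator MLK3, 179.1 and 144.8 (-0.31). Both stayed below the control floor on both arrays. Map3k1 (124.4 and 46.1) and Map3k8 (30.4 and 39.4) were below the floor on both and have no usable change.

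Map3k2, a relative of Map3k3 in the ERK5 branch, had 2 probe sets that gave different answers. The first read 598.0 and 618.9, a log2 change of 0.050. The second was below the floor with tetracycline (51.7) and read 199.1 after withdrawal, below the control floor, with a bound of at least 1.53-fold higher against the floor. Only the first was above the control floor in both conditions, and it was level.

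Among MAP2 kinases, Map2k3, which activates p38, had the highest change. It read 1461.6 and 1953.0, a log2 change of 0.42 and the largest upward change of any kinase above the control floor, against a spread of 0.39. The ERK activators Map2k1 and Map2k2 read 319.6 and 388.4 (0.28), and 6253.8 and 5761.7 (-0.12). Map2k4, which activates JNK, read 399.2 and 367.6 (-0.12). The last 3 changes were smaller than their spreads (0.79, 0.28 and 0.77). Map2k6, the other p38 activator with a probe set, read 39.1 and 45.9, below the floor on both arrays.

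The MAP kinases themselves had few probe sets. Mapk14, encoding p38 alpha, read 810.1 and 1030.8 (log2 change 0.35, spread 0.42). Mapk7, encoding ERK5, read 1195.0 and 1473.6 (0.30, spread 0.37). Mapk10, the JNK gene of neurons, read 105.7 and 218.2. It was above the floor only after withdrawal, and there below the control floor, with a bound of at least 1.68-fold higher against the floor.

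Mapkapk2 encodes MK2, the kinase through which p38 controls the stability of cytokine messenger RNAs. Both its probe sets, on the MB type, were higher by a like amount. They read 5134.3 and 6646.1, and 2205.5 and 2795.8, with log2 changes of 0.37 and 0.34 against spreads of 0.31 each. The probe sets carry the same accession and are not independent. Changes larger than those of Map2k3, Mapk14 and Mapkapk2 were found in 15.5% (Map2k3), 19.3% (Mapk14), and 18.6% and 20.5% (the 2 Mapkapk2 probe sets) of the probe sets above the control floor of their array type. Each change alone was therefore of a common size.

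The JIP scaffolds, which hold the kinases of the JNK branch together, had pairs of probe sets on the same accession. Those of Mapk8ip1 (JIP1) read 60.1 and 206.2, and 198.0 and 428.5. Both were higher after withdrawal, the second by a log2 change of 1.11. Neither was above the control floor with tetracycline, and the spread at the level of the second was 0.83. Those of Mapk8ip3 (JIP3) disagreed. The brighter read 786.0 and 759.9 (-0.049) and the dimmer 325.8 and 99.6, below the floor after withdrawal, with a bound of at least 2.51-fold lower against the floor and 1.16-fold against the control floor.

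**Figure D3:**
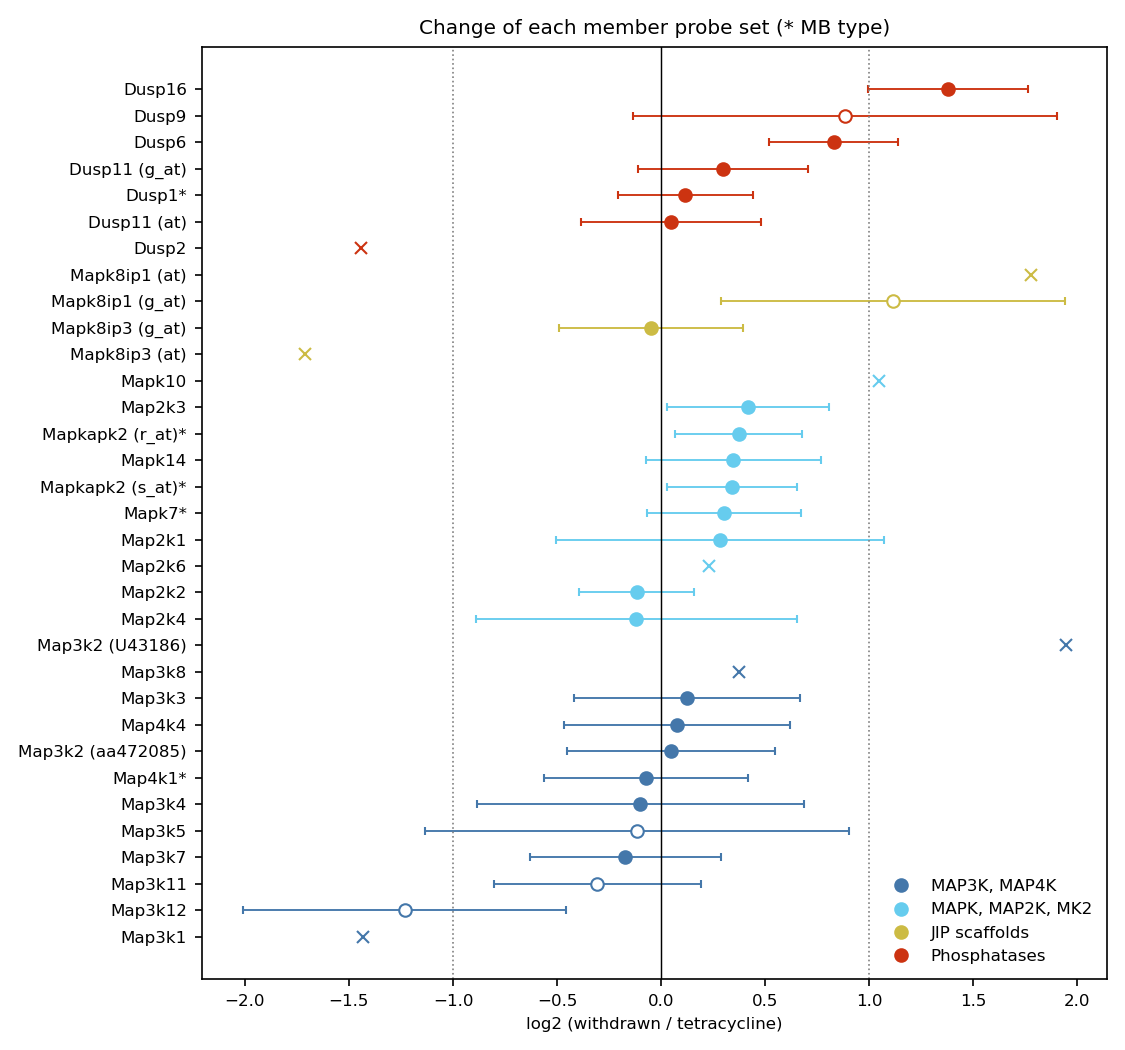
Log2 change of each member probe set. Bars are the spread among 200 neighbours in level (1 robust SD), filled circles were above the control floor on both arrays, open circles above the floor only, and crosses below the floor on at least 1 array (no bar). Only Dusp16 is a filled circle beyond a dotted 2-fold line.

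The contrast of phosphatases with kinases rests on the first array type. There the phosphatase median, over Dusp6, Dusp9 and Dusp16, was 0.88 and the kinase median -0.10, a difference of 0.98. On the MB type the only phosphatase was Dusp1, at 0.12, below the median of 0.30 over Map4k1, Mapk7 and Mapkapk2, so that the difference was -0.19. At the control floor the difference was 0.75, with 3 phosphatase and 13 kinase genes. Leaving out each phosphatase in turn gave 0.84 to 0.90. With 4 genes this range is set by the middle values, Dusp6 and Dusp9, so it does not measure stability. The kinases also held values close to those of genes at large: 8 of 16 were higher to any extent, beside 49.6% of all measured genes. A change of at least 1.5-fold upward was found in 13.2% of all measured genes and in 3 of the 4 phosphatases. At the control floor it was found in 8.88% of genes and in 2 of 3 phosphatases, Dusp6 and Dusp16.

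The other genes of the pathway were taken from lists that were chosen with earlier results of these data known. Their counts are a description and were not tested. Of 12 measured Ras, Raf and adaptor genes, 6 were higher and 6 lower, none by 2-fold, with a median log2 change of 0.0084. Above the control floor the widest were the Ras relative Mras (531.7 and 986.5, log2 change 0.89), the docking protein gene Gab1 (655.7 and 1186.1, 0.86) and the GTPase gene Rac1 (11440.2 and 8349.5, -0.45). Of 11 receptor genes 4 were higher, 1 of them by 2-fold, and 7 lower, with a median of -0.070. The platelet-derived growth factor receptors, the main mitogen receptors of fibroblasts, went opposite ways: Pdgfrb read 1254.0 and 1781.9 (0.51), and Pdgfra 2711.4 and 2015.5 (-0.43). The gene past 2-fold was Fgfr2, a fibroblast growth factor receptor. Its measured probe sets gave 0.42 and 1.59, and the larger change began below the control floor.

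Activators of the JNK and p38 branches were higher in 6 of 8 measured genes, 2 of them by 2-fold, with a median of 0.35. At the control floor 5 of 7 were higher, with a median of 0.24. Of all measured genes, 49.6% were higher to any extent and 5.26% by 2-fold. The 2 were Gadd45a (2.25) and Gadd45b (2.02), whose products bind and activate the kinase encoded by Map3k4, itself level here. Daxx, an adaptor toward ASK1, read 695.9 and 955.8 (0.46). Inhibitors other than dual-specificity phosphatases were higher in 9 of 11 genes, with a median of 0.11. These 9 include Socs3, a cytokine signalling inhibitor, at 1717.0 and 1717.8. Only Trib3, a pseudokinase that binds MAP2 kinases among other partners, passed 2-fold (2.11). Errfi1, a feedback inhibitor of the epidermal growth factor receptor, read 1008.6 and 1324.6 (0.39), and the phosphatase gene Ppm1b 945.0 and 647.4 (-0.55). The RSK gene Rps6ka3 was the only measured member of 8 listed downstream kinases, at 577.2 and 375.7 (-0.62).

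Nuclear targets of the cascade stood higher than its kinases. Of 26 measured genes other than Dusp1, 22 were higher, 5 of them by 2-fold and none lower by 2-fold, with a median of 0.63. Over all measured genes, 5.26% were higher and 4.22% lower by 2-fold. The 5 were Junb (1.52), Klf4 (1.44), Egr1 (1475.5 and 3665.0, 1.31), Atf3 (1.01) and Mef2a, a transcription factor phosphorylated by p38 and ERK5 (285.9 and 573.7, 1.00). Dusp1 belongs to the same list, and 20 of the other 26 genes had a larger change. Those with a smaller one were Ccnd1, Elk1, Elk3, Elk4, Plaur and Ptgs2. Fos, a defining immediate early gene, was below the floor with tetracycline on both probe sets (34.8 and 31.8) and read 202.5 and 67.7 after withdrawal, below the control floor.

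How far such changes repeat could be read from probe sets that both array types carry. There were 37, mostly actin, Gapdh and other mouse control probe sets, and 15 were above the control floor on all 4 arrays. Whether both arrays of a condition had the same RNA is not stated. The log2 changes of these 15 differed between the types by a median of 0.19, with an SD of the differences of 0.42. Several of the 15 belong to the same gene and are not independent. Several were also far brighter than any member: a Gapdh probe set read 35016.3 and 29574.3 on the first type, while no member exceeded 6646.1. The median difference therefore says less about the levels of the members. The widest difference was 1.12, for a pyruvate carboxylase control that read 622.8 and 1038.1 on the first type but 1448.9 and 1114.6 on the MB type. These are levels like those of the Dusp16 probe set, whose change of 1.38 was measured once. At the floor, 5 of 23 shared probe sets differed by 2-fold or more.

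**Figure D4:**
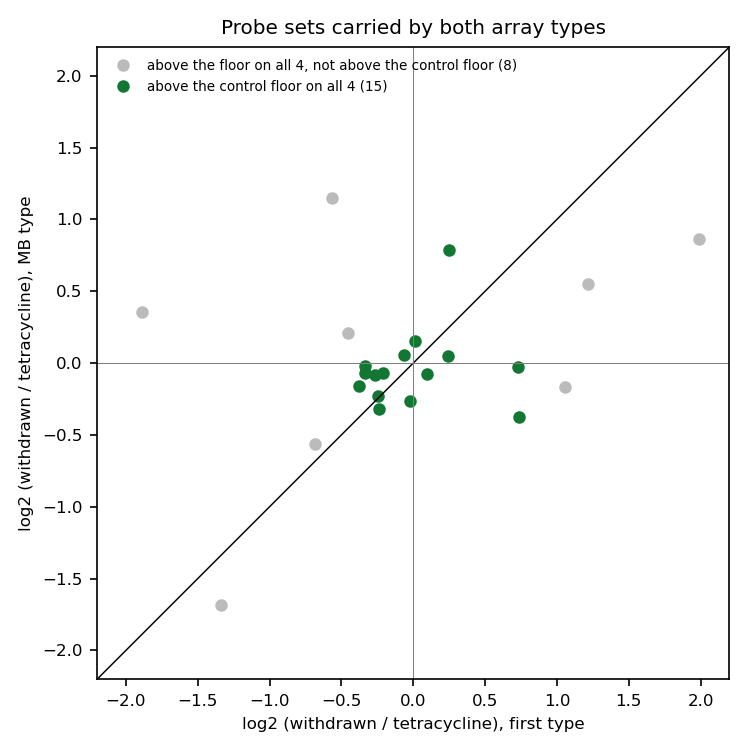
Log2 change of the probe sets carried by both array types, first type on the horizontal and MB type on the vertical axis, with the line of equality. Probe sets above the control floor on all 4 arrays (green) stay mostly within 0.5 of the line, and those between the floors (grey) scatter up to 2.24 from it.

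Over the whole arrays, the trimmed means of the deposited intensities lay between 996.6 and 1000.4, and the median log2 change of measured probe sets was -0.012 for the first and 0.025 for the MB type. Of 14 listed fibroblast markers 12 were measured, among them Col1a1, Fn1, Vim and Thy1. Postn was below the floor on both arrays and Lum after withdrawal. Their summed intensity was lower after withdrawal, from 61024.7 to 49178.8 (first type) and from 190842.2 to 162406.5 (MB type). Leukocyte markers summed to 3078.7 and 3292.4 (first type) and to 1985.7 and 1189.2 (MB type), with Csf1r below the floor on both MB arrays. Other leukocyte markers were above the control floor in both conditions: the pan-leukocyte gene Ptprc (710.1 and 363.9), Cd3e (638.9 and 753.3) and Lyz2 (432.7 and 562.8). The sums of epithelial markers lay between 257.0 and 1235.5, of muscle markers between 2190.8 and 4496.3 and of endothelial markers between 241.9 and 847.1. Also above the control floor in both conditions were the muscle genes Myod1 (694.3 and 690.9), Myog (633.2 and 455.7) and Ckm (2663.7 and 2920.9, and 1022.1 and 1285.3). The epithelial gene Krt8 was so on 1 probe set (642.3 and 487.4), and no endothelial marker was. No marker probe set is listed at 0. The part of other cell types in the member changes was not tested.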

How the data were processed

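Per the labels, total RNA of NIH3T3 cultures was measured on 2 array types. The authors deposited 1 linear intensity per probe set and array, without detection calls. Scanner software and earlier steps were not given in the sources used here. Because the trimmed means (2% from each end) of both arrays of a type lay within 5%, the deposited intensities were not rescaled. Control probe sets (61 per type) were left out. Gene names came from the platform annotation, with symbols updated by Entrez identifier through RefSeq (GRCm38.p6), and 5532 of 5541 and 1993 of 2001 singly named probe sets matched. The 224 probe sets with several symbols were named for no gene.

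The change is log2 of withdrawn over tetracycline intensity within a type, with no pseudocount. A gene took the median over its measured probe sets. With 1 array per condition no test was possible, and the number of arrays limits the precision. Members and lists were chosen with earlier results of these data known. All member genes were named, with full values for those past 2-fold, below the floor on 1 array or at either end above the control floor, and up to 3 genes per pathway list. Genes named beyond these were chosen after their values were seen. Promoter windows came from RefSeq. The counting was tested on simulated data, with changes larger than 2-fold in bright probe sets only. It was not tested for changes close to 2-fold or for probe sets near the floor. Python 3.11.15, numpy 2.4.6, pandas 2.3.3, statsmodels 0.14.6 and matplotlib 3.10.9 were used. Alternatives were other scalings (quantile, equal medians, loess with a span of 0.4), other floors, 1.5-fold and 3-fold limits, each type alone and, for genes, their brightest probe set.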

Additional observations from a re-analysis of the deposited data

How the results depend on the processing

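No paired analysis was possible because each condition had 1 array per type. The counts of members past 2-fold on the first type (2 higher, 1 lower) kept their values under the 3 other scalings. They were 3 higher and 3 lower with a floor of 64.9, 1 and 0 with a floor of 259.4 or the control floor, 4 and 1 at a 1.5-fold limit and 0 and 0 at a 3-fold limit. On the MB type all these counts were 0. Leaving out 1 phosphatase gene, a check added after the data were seen, gives a range set by the middle values alone (Dusp6 and Dusp9). The phosphatase median minus the kinase median (0.868) ran from 0.841 to 0.896 in that check. It was 0.862 to 0.893 under the other scalings, and 0.753 with a floor of 259.4 (160.0 on the MB type) and with the control floor. With a floor of 64.9 (40.0 on the MB type), where Dusp2 counted as measured, it was 0.78. The difference was 0.984 for the first type by itself, and -0.185 for the MB type by itself, where the only phosphatase gene was Dusp1. There the kinase median was 0.302 and the phosphatase median 0.117, and no atypical phosphatase had a probe set. Over both types the kinase median, near 0, turned from -0.012 to 0.001 with the loess trend removed and to 0.076 at the control floor. The Dusp11 value was 0.173, and 0.047 with its brightest probe set. The pathway lists held 9 genes higher and 0 lower by 2-fold, and 3 lower with a floor of 64.9 (40.0 on the MB type), with 8 to 11 higher over the alternatives run, which were added after the data were seen. Of the 25 measured member probe sets, Map3k11 moved by over 0.1 with quantile normalization (to -0.186) and Map4k1 with the loess trend removed (to -0.18), without a change of sign. Signal over background limits the dim members: 8 of 33 were above the control floor on neither array.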

Other observations

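Probe sets of the same gene on the same array type showed how far such probe sets agree. They were read from the same RNA on the same arrays. Their differences therefore do not show whether a change would repeat in other cultures or arrays. On the first type 274 genes had exactly 2 probe sets above the control floor. Their log2 changes differed by a median of 0.32, by up to 1.04 for 95% of the genes, and by 2-fold or more in 6.93%. On the MB type the median was 0.23 over 73 genes, with 4.11% differing by 2-fold. At the floor the shares differing by 2-fold were 14.5% and 24.6%. At the control floor the 2 probe sets of a gene had opposite signs in 41.2% (first type) and 38.4% (MB type) of these genes. Of the members, Mapkapk2 (0.37 and 0.34) and Dusp11 (0.047 and 0.30) had such pairs, each with the same sign. Within each of these pairs the probe sets have the same source sequence and are not independent.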
